A study of Mus musculus with 8 samples.

Results

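Fibroblast progenitors marked by Ccl11 and Col15a1 were singled out from droplet-based single-cell RNA sequencing of mouse long bone periosteum, the thin cell layer on the outer surface of bone. They were 192 of the 12253 cells that passed filtering, 75 of 6029 in the library of mice on normal diet (ND) and 117 of 6224 in that of mice on high-fat diet (HFD). Male C57BL/6J mice aged 16 weeks had been fed either chow, and the labels name no transgene and no further treatment. The periosteal cells of the left femurs and tibias were freed with collagenase and dispase for 1.5 h at 37 °C and were not sorted. The labels list 4 mice per diet, but all cells of a diet sit in 1 pooled library in which no cell can be traced to a mouse. Every diet comparison therefore sets 1 library against 1 library and has no replicate check and no test. Intervals are exact 95% intervals of the counts, cover counting error only and say nothing about the spread between mice.

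Each count is a number of unique molecular identifiers (UMIs), a tag that marks a single RNA molecule, so that reads copied from the same molecule are counted as 1. A cell entered the progenitor gate when collagen and decorin RNA (Col1a1, Col1a2, Col3a1 and Dcn) made up at least 0.5% of its UMIs, with at least 5 UMIs of Ly6a (the gene of Sca-1, a surface protein of many mesenchymal progenitors). It had to have no UMI of the endothelial gene Cdh5, under 5 of the pericyte gene Rgs5, under 20 of the bone matrix genes Bglap, Bglap2 and Ibsp together and under 5 of the tendon and cartilage genes Tnmd, Chad, Scx and Mkx together. The gate held 183 ND and 264 HFD cells. A gated cell was a member when its UMIs of Ccl11, Inmt, Col15a1 and Cxcl14 together were at least as many as those of Pi16, Dpp4, Efemp1 and Procr, and the other gated cells with any UMI of these 8 genes are called Pi16 type progenitors here (106 in ND and 140 in HFD). Another 2 ND and 7 HFD cells had none of the 8 genes.

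In many connective tissues, Pi16 and Dpp4 mark fibroblasts that lie in the outer sheaths and are held to be a general progenitor pool. Fibroblasts with Col15a1 lie closer to vessels and parenchyma, where they lay down basement membrane and perivascular matrix. Ccl11 encodes eotaxin, a chemokine that draws eosinophils, and Cxcl14 a chemokine made by fibroblasts and epithelia. Col15a1 encodes the chain of collagen XV, a basement membrane zone collagen, and Inmt an N-methyltransferase of small amines. In the GENCODE annotation of GRCm38 (mm10), the build that the processing notes of the submitters name, Ccl11 lies at chr11:82057823-82062955 and Col15a1 at chr4:47208161-47313167 on the plus strand. Cxcl14 lies at chr13:56288643-56296551 and Inmt at chr6:55170626-55175043 on the minus strand. All 4 are annotated as protein-coding genes.

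The members were deeply sampled cells. The median member held 10632 UMIs in ND and 10597 in HFD, against 4610 and 4823.5 over all filtered cells, and the members together held 887854 and 1423411 UMIs. Members made up 1.24% of filtered cells in ND (95% interval 0.980 to 1.56%) and 1.88% in HFD (1.56 to 2.25%), intervals that met without overlapping. Within the progenitor gate their share was 41.0% in ND (33.8 to 48.5%) and 44.3% in HFD (38.2 to 50.5%), so that the intervals overlapped widely. The Pi16 type progenitors were 1.76% (1.44 to 2.12%) and 2.25% (1.90 to 2.65%) of filtered cells. Cells of a tendon gate (tendon genes at 5 UMIs or more) numbered 115 in ND and 182 in HFD, and cells of an osteogenic gate (bone matrix genes at 20 UMIs or more) 44 and 99. All these stromal groups were larger in the HFD library. The libraries shared 15 cell barcodes, none of them of a member.

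The rule puts at least 50% of a member's UMIs of the 8 genes on the Ccl11 side, so that the following shares describe the split and are no check of it. The median member placed 90% of these UMIs on that side in ND and 93.2% in HFD, and 23 ND and 32 HFD members had no UMI on the Pi16 side. Conversely, 22 ND and 30 HFD members placed under 75% of these UMIs on the Ccl11 side. Just inside the boundary, 12 ND and 20 HFD members led by 0 to 2 UMIs, with 33 against 22 UMIs summed over these cells in ND and 116 against 96 in HFD. Just outside it, 13 ND and 17 HFD cells trailed by 1 to 2 UMIs, with 20 against 42 UMIs in ND and 32 against 59 in HFD. Equal sums were found in 4 ND and 5 HFD members.

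**Figure D1:**
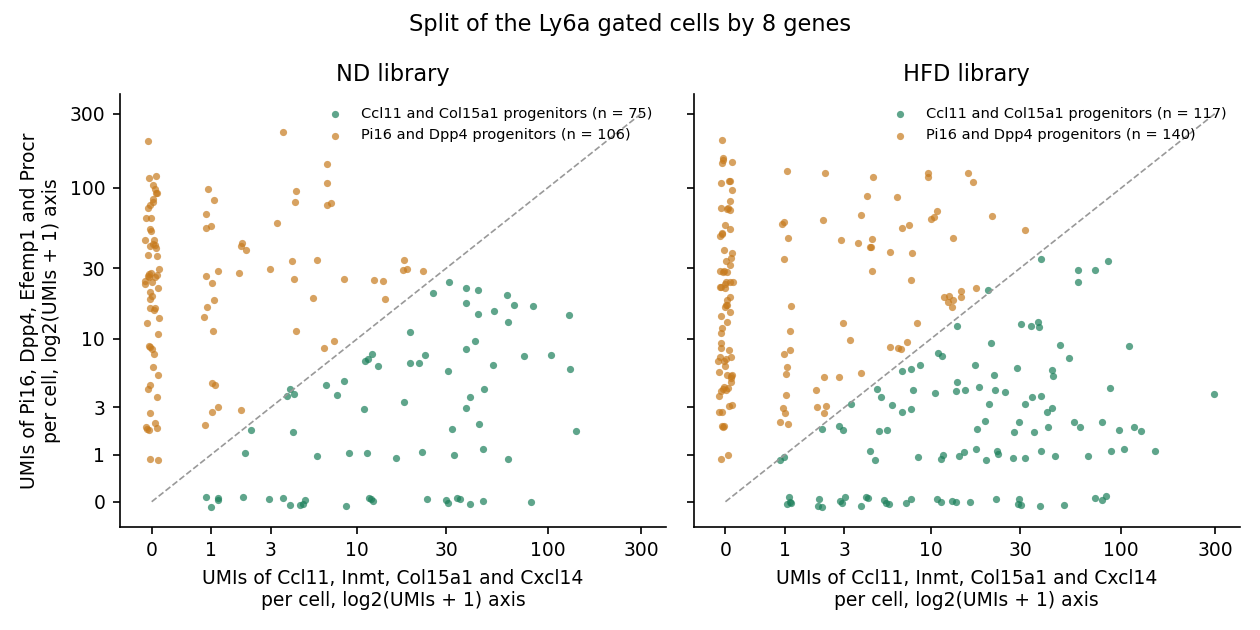
UMIs of the 4 Ccl11 side genes (x axis) and of the 4 Pi16 side genes (y axis) in each of the 75 ND and 117 HFD members and the 106 and 140 Pi16 type progenitors, as log2(UMIs + 1) with a small random shift to part overlapping points. Gated cells with none of the 8 genes (2 in ND and 7 in HFD) are not drawn, members lie on or under the dashed line of equality before the shift, and many of them lie on the floor of the plot, with no UMI of the Pi16 side.

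The members were chosen by their UMI counts of the gate genes, whose levels are given as a description only. The levels below are UMIs per 1000000 UMIs of the cell group (UPM). Ccl11 stood at 608 UPM in ND and 594 in HFD members, Cxcl14 at 1639.9 and 1459, Col15a1 at 203 and 321 and Inmt at 116 and 193. In the Pi16 type progenitors Ccl11 stood at 103 and 123 UPM, Cxcl14 at 32.6 and 39.8, Col15a1 at 12.1 and 38.2 and Inmt at 21.98 and 27.3. Cxcl14 was not particular to the members among stromal cells, since the tendon gate held it at 452 UPM in ND and 253 in HFD. Pi16 stood at 198 and 196 UPM in members and Dpp4 at 61.9 and 37.2.

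A B cell gate of 1615 ND and 1535 HFD cells with at least 3 UMIs of Cd79a served as the measure of free RNA, because B cells should lack these fibroblast genes. Ccl11 was found in 52.0% of ND and 63.2% of HFD members against 0.124% and 0.326% of B-gated cells, at median depths of 10632 and 10597 UMIs in members and of 3959 and 3861 in B-gated cells. Cxcl14 was found in 61.3% and 58.1% of members against 0.433% and 0.521% of B-gated cells at the same depths. Of the Pi16 side genes, Pi16 and Dpp4 were also found in cells of other gates. Pi16 stood at 122 UPM in ND and 100.3 in HFD in a neutrophil gate and at 11.1 and 6.03 in the B gate, and Dpp4 stood at 44.9 and 56.4 UPM in the B gate, which in HFD is above its level in members. Efemp1 and Procr had 3 and 2 UMIs in the ND and 2 and 1 in the HFD cells of the B gate.

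Sparcl1 and Dpep1 are listed as markers of these cells and took no part in the gate. As they were named as markers beforehand, their levels are a description and no independent check. Sparcl1, a matricellular protein related to osteonectin, stood at 607 UPM in ND and 1181 in HFD members, against 201 and 363 in the Pi16 type progenitors. In the tendon gate it stood at 38.6 and 139 UPM and in the osteogenic gate at 36.6 and 203. Dpep1, a membrane dipeptidase, stood at 216 and 254 UPM in members and at 95.7 and 74.2 in the Pi16 type progenitors. In the B gate Sparcl1 stood at 21.3 and 26.1 UPM and Dpep1 at 0.335 and 0.118. Among the 6 groups compared, both genes were highest in the members in each library. No endothelial or mural group was measured, and outside the members single cells held up to 145 Sparcl1 UMIs in ND and 133 in HFD, against at most 46 and 108 in a member.

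**Figure D2:**
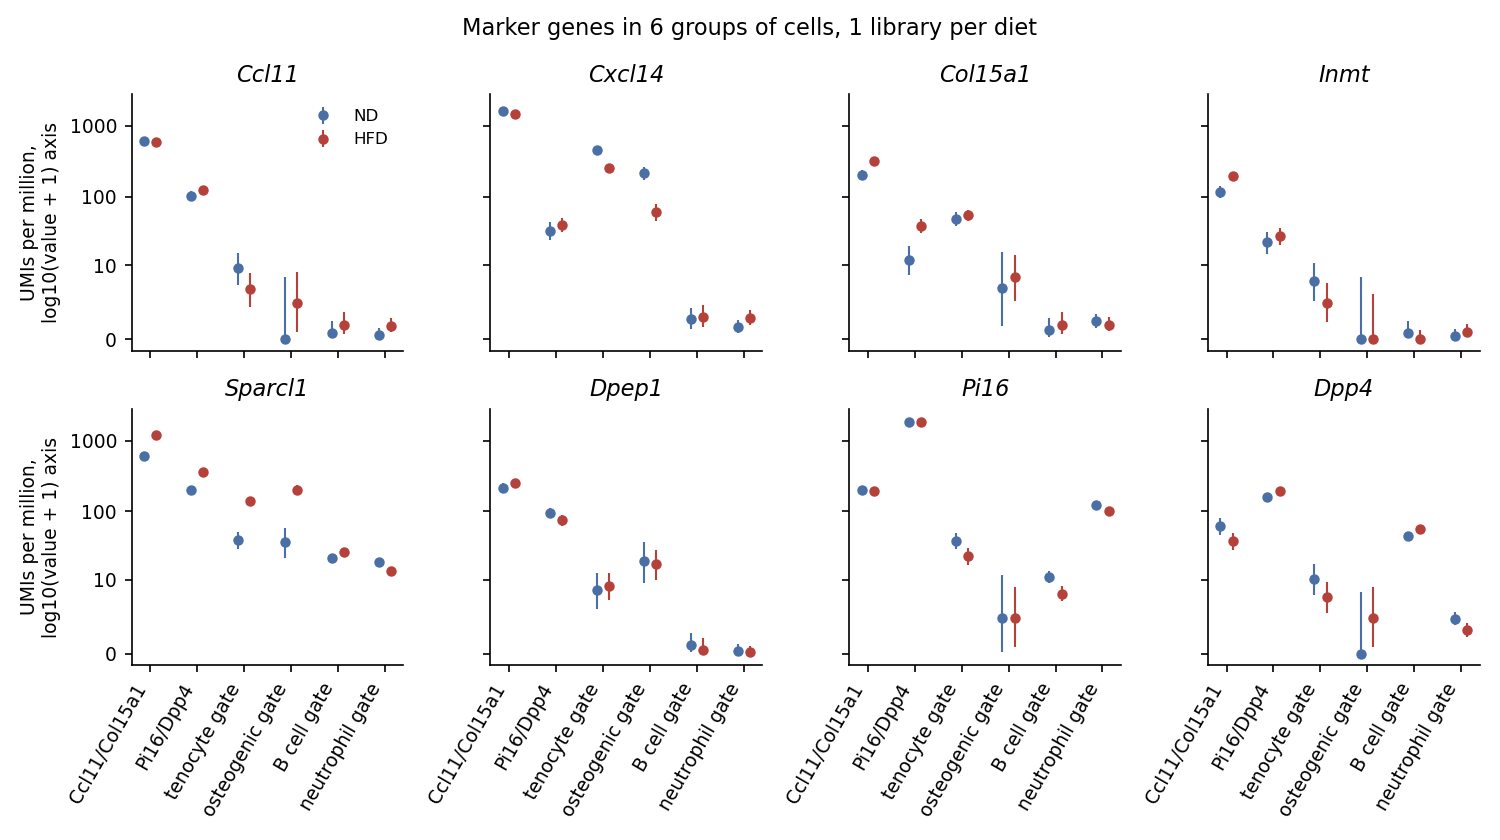
Levels of 8 marker genes in UMIs per 1000000 UMIs (log10(value + 1) axis) in 6 groups of cells (x axis), with exact 95% Poisson intervals, for the ND (blue) and the HFD (red) library. Ccl11, Inmt, Sparcl1 and Dpep1 stand highest in the Ccl11 and Col15a1 progenitors among these groups, while Cxcl14 is also found in the tendon gate and Pi16 in the neutrophil gate.

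The members were compared with the Pi16 type progenitors of the same library, the cells most like them, to find what else they share. With 0.5 UMIs added to each count, 6128 genes with at least 100 UMIs over both types were compared, leaving out the 22 genes of the gates. At least 2-fold in both libraries, 135 genes were higher in members (2.2% of those tested) and 95 were lower (1.55%). The median log2 ratio over all genes was 0.01 in each library. Of the 135 and 95 genes, 125 and 93 were also past the fold when, for each gene, the cell with most UMIs was left out of each group. Both libraries come from 1 pool of mice each, and their repeat is the only check on these ratios.

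Basement membrane genes were among the genes higher in members. Smoc2, a calcium-binding matrix protein of basement membranes, stood at 698 UPM in ND and 1178 in HFD members against 36.9 and 122 in the Pi16 type (log2 ratios 4.23 and 3.27). It was found in 55 of 75 and 91 of 117 members. Col4a1, a chain of the basement membrane collagen IV, stood at 708 and 910.5 UPM against 133 and 163 (2.41 and 2.48). Its partner chain Col4a2 stood at 374 and 387 UPM against 50.3 and 99.3 (2.88 and 1.96), and Nid2, a linker between laminin and collagen IV, had log2 ratios of 2.29 and 2.94. Of the 13 basement membrane genes tested, 6 were at least 2-fold higher in members in both libraries (Smoc2, Col4a1, Col4a2, Nid2, Lama2 and Col18a1), 11 were above 0 in both and none was 2-fold lower. Smoc2, Col4a1, Col4a2 and Lama2 are also on the list of Col15a1 fibroblast genes given below, which was drawn up with the markers in view. The log2 medians of this list were 1.00 in ND and 1.05 in HFD. Of all tested genes, 2.2% were 2-fold higher in members in both libraries and 1.55% lower.

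Mgp, the matrix Gla protein that restrains calcification of soft tissue, was found in 60 of 75 ND and 110 of 117 HFD members. It stood at 3361 UPM in ND and 7104 in HFD members against 506 and 1209 in the Pi16 type, with log2 ratios of 2.73 and 2.55. The tendon gate held still more, 5116 and 10432 UPM. Some growth and signalling factors were higher in members. Mdk (midkine, a heparin-binding growth factor) had log2 ratios of 4.39 and 3.43 from 59 and 104 UMIs in 16 and 40 members. Gdf10, a BMP-like ligand, had 3.62 and 2.56, and Bmp5 and Fgf7, a BMP and a fibroblast growth factor that acts on epithelia, had 2.09 and 1.20 and 1.62 and 1.11. Of 25 growth factor genes tested, 6 were higher and 1, the axon guidance ligand Sema3c, was lower, with list medians of 0.44 in ND and 0.51 in HFD. Over all tested genes, 2.2% were higher and 1.55% lower.

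Cyp26b1, which degrades retinoic acid, stood at 90.1 and 54.8 UPM in members against 4.96 and 5.45 in the Pi16 type (log2 ratios 4.09 and 3.27), in 16 ND and 18 HFD members. Of the 34 tested enzymes of small-molecule metabolism, 6 were higher in members and 2 lower, against 2.2% and 1.55% of all tested genes. Aldh1a2, which makes retinoic acid, stood at 27.0 and 49.9 against 5.67 and 11.5 UPM. Aldh1a3, another enzyme that makes retinoic acid, went the other way, with 1.13 and 11.9 UPM in members against 31.2 and 56.2. Adh1, an alcohol dehydrogenase, stood at 48.4 and 83.6 UPM against 11.3 and 9.82. The flavin-containing monooxygenase gene Fmo2 and Hsd11b1, which regenerates active glucocorticoid, had log2 ratios of 1.57 and 1.51 and of 2.06 and 1.65.

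The mesoderm transcription factor Meox1 had log2 ratios of 3.37 and 2.56 and was found in 31 ND and 62 HFD members. Lum, a small leucine-rich proteoglycan of collagen fibrils, stood at 1287 and 1936 UPM against 479 and 857, and Podn, a related proteoglycan, had log2 ratios of 1.62 and 1.14. Clu, an extracellular chaperone that restrains complement, stood at 155 and 190.4 UPM in members against 31.9 and 37.1. Cd55, a membrane inhibitor of complement and a known gene of the Pi16 type, was lower in members, at 229.8 and 210.1 against 870.1 and 978 UPM.

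2 of the 15 leading genes rested mostly on 1 cell in at least 1 library. Fmod, the tendon proteoglycan fibromodulin, was found in 5 ND and 11 HFD members, and 1 HFD member held 169 of its 242 UMIs. Tagln, a smooth muscle gene, had 402 of its 403 ND UMIs in 1 member and all 33 HFD UMIs in another, and without the cell with most UMIs its log2 ratios were below 0 in both libraries, the lower at -3.07. The other leading genes, Lsamp (a neural cell adhesion protein), Ecrg4, Cpxm1 (an inactive carboxypeptidase-like matrix protein) and Gask1b, had log2 ratios between 2.27 and 3.80. Ecrg4 also leaned on single cells, as 1 ND member held 83 of its UMIs and 1 HFD member 185. Its smaller log2 ratio was 2.89, and 2.15 as a mean over cells of shares of UMIs.

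A list of 25 genes tied to Col15a1 fibroblasts in other tissues was followed as a group. 23 of its genes were tested, all 23 were above 0 in both libraries and 19 were at least 2-fold higher in members. A list of 28 genes of the Pi16 type had 27 genes tested, all 27 below 0 in both libraries and 16 at least 2-fold lower. Among all tested genes, 2.2% were higher and 1.55% lower. Both lists were drawn up with the markers of the types in view, so that their direction follows from the choice of cells in part and is given as a description only. Some of their genes are also on the other lists, whose counts between types share this limit. Among these are Lpl, Apod, Fmo2, Hsd11b1, Dpep1, Gdf10, Podn and Sparcl1 of the first list. Those of the second include Fbn1, Pcolce2, Emilin2, Sema3c, Cd55 and Igfbp5.

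The 15 genes with the lowest ratios in members were of mixed kinds. Prg4, which encodes lubricin, the boundary lubricant of joints, tendons and sheaths, stood at 1169 UPM in ND and 1044 in HFD members against 5794 and 19373 in the Pi16 type (log2 ratios -2.31 and -4.21). Its level in the B gate was 5.14 and 33.3 UPM. Dact2, a modulator of Wnt and TGFβ signalling, had 2 and 3 UMIs in all ND and HFD members against 74 and 144 in the Pi16 type, and Car8, a carbonic anhydrase-related protein, 3 and 2 against 88 and 157. The Wnt ligand Wnt10b stood at 3.38 and 4.92 UPM against 60.3 and 49.6, and Sema3e, an axon and vessel guidance ligand, at 19.1 and 11.2 against 112 and 63.3. Il18, a cytokine of the interleukin-1 family, had log2 ratios of -2.93 and -2.84. The remaining leading genes on this side, F13a1, Clic5, Ccl4, Matn4, Rorb, Duox1, Ildr2, Limch1 and Stmn4, had at most 19 UMIs in the members of either library. Ccl4, a chemokine of blood cells, stood at 85.2 and 39.5 UPM in the B gate, above its level in members of 5.63 and 2.81.

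**Figure D3:**
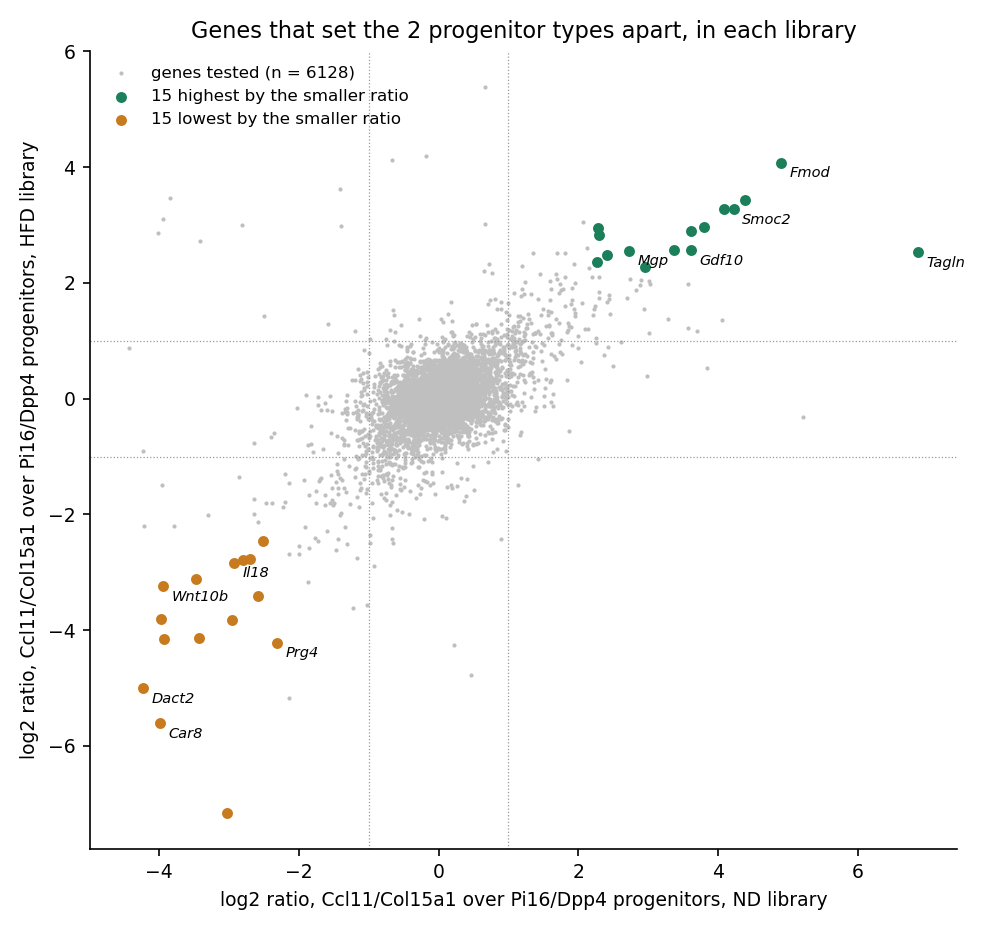
Log2 ratio of the Ccl11 and Col15a1 progenitors over the Pi16 type progenitors in the ND library (x axis) and in the HFD library (y axis) for the 6128 genes tested (grey), with the 15 highest (green) and the 15 lowest (orange) by the ratio nearer 0. Dotted lines mark a 2-fold difference. Smoc2, Mgp and Gdf10 lie in the upper right and Prg4, Dact2 and Car8 in the lower left, while Tagln stands apart through 1 cell in each library.

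The remaining lists are given by their counts, to be read beside the 2.2% of all tested genes that were higher in members and the 1.55% that were lower. In both libraries 6 of 37 genes of fibrillar and interstitial matrix were at least 2-fold higher in members and 3 lower, and so were 3 and 0 of 9 small leucine-rich proteoglycans, 3 and 1 of 11 complement genes, 3 and 0 of 16 chemokines and cytokines, 2 and 2 of 15 Wnt and BMP modulators, and 3 and 0 of 18 genes of mesenchymal identity. Pdgfra, the PDGF receptor of most fibroblasts, had log2 ratios of 0.64 and 0.70 and thus did not part the types. The heat-shock chaperones had 1 of 16 genes past the fold (Hspa1b, 1.39 and 1.14), the glucocorticoid-responsive genes 1 of 16 (Hsd11b1), the limb position genes 1 of 6 (Pitx1, lower) and the 5 proliferation genes tested none.

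Other lists had few or no genes past the fold. None of the 36 immediate-early genes tested was 2-fold apart in both libraries (log2 medians 0.13 and 0.32), nor was any of the 19 interferon and MHC class I genes or of the 12 circadian clock genes. Among receptors for ligands made by nerves, 9 genes were tested and 1, Tek, the angiopoietin receptor, was lower in members (21.4 and 11.2 UPM against 79.4 and 69.3). Of 8 osteogenic genes tested none was past the fold. Among 26 genes of lipid handling, Lpl (lipoprotein lipase) and Apod (apolipoprotein D) were higher in members, with log2 ratios of 1.35 and 2.51 and of 1.42 and 1.72. Igfbp7, Fst (follistatin, an activin antagonist) and Cxcl1 (a neutrophil chemokine) were higher, with the smaller log2 ratio of each at 1.17, 1.25 and 1.09 (Cxcl1 stood at 0.76 in ND without the cells with most UMIs), and Igfbp5 and Sfrp4, a Wnt inhibitor, were lower (-1.25 and -1.04).

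Among themselves the members fell into cells led by different genes of the gate. By the gene with most UMIs, Cxcl14 led 37 ND and 49 HFD members (49.3 and 41.9%), Ccl11 led 22 and 37 (29.3 and 31.6%), Col15a1 8 and 19 (10.7 and 16.2%) and Inmt 6 and 7 (8 and 5.98%), and 2 and 5 were tied. Ccl11 and Cxcl14 were found together in 19 ND and 39 HFD members, and with at least 5 UMIs of each in 10 and 24. Only 1 of the 4 genes was detected in 26 ND and 31 HFD members, and all 4 in 12 and 23. The leading gene is uncertain where counts are low, and 7 ND and 12 HFD members had at most 3 UMIs over the 8 genes.

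Members near the boundary were compared with the others. In members with 50 to under 75% of the 8-gene UMIs on the Ccl11 side, Smoc2 stood at 533 UPM in ND and 1342 in HFD, against 36.9 and 122 in the Pi16 type, and Col4a1 at 625 and 675 against 133 and 163. Gdf10 was lower in these cells (61.3 and 87.7 UPM) than in members with no UMI of the Pi16 side (255 and 222). Prg4 stood at 1579 and 1432 UPM in the former and at 724 and 981 in the latter, against 5794 and 19373 in the Pi16 type. Cd55, Sema3c and Pcolce2, genes of the Pi16 type list, had levels in the boundary members between those of members with no UMI of the Pi16 side and those of the Pi16 type, but the levels did not grade evenly with the share. Cd55 stood at 441 and 313 UPM there, 99.04 and 111 in members with no UMI of the Pi16 side and 870.1 and 978 in the Pi16 type. Sema3c stood at 222 and 81.8 UPM in the boundary members against 412 and 463 in the Pi16 type, and Pcolce2 at 617 and 569.96 against 1208 and 1168. Fn1 stood at 3484 and 1190 UPM in the boundary members, at 3942 and 951 in members with no UMI of the Pi16 side and at 4195 and 5307 in the Pi16 type. The 3942 UPM rests largely on 1 ND member, which held 756 of the 2355 Fn1 UMIs of all ND members. HFD members with 75 to under 90% on the Ccl11 side held more Cd55 (449 UPM), Sema3c (137) and Fn1 (2006) than the HFD boundary members.

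**Figure D4:**
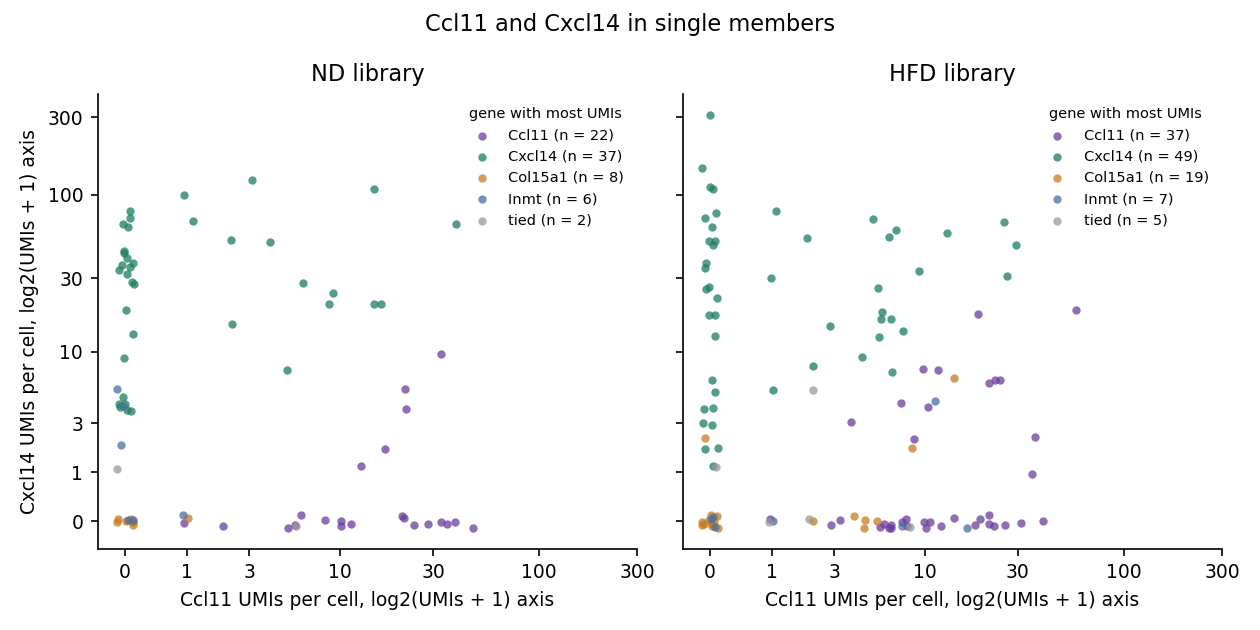
Ccl11 (x axis) and Cxcl14 UMIs (y axis) of each member as log2(UMIs + 1), with a small random shift, coloured by the gene with most UMIs, for the ND and the HFD library. Most Cxcl14-led cells line the left side and most Ccl11-led cells the bottom, and cells with at least 5 UMIs of both lie between them (10 in ND and 24 in HFD).

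Ccl11-led and Cxcl14-led members differed in other genes, which were chosen after their values were seen and are given without a test. The Ccl11-led members were higher in Pcsk6, a protease that activates TGFβ family ligands, with 507 against 96.7 UPM in ND and 270.3 against 51.7 in HFD. They were also higher in the hemicentin Hmcn2 (949 against 177 and 683 against 157 UPM), in Cd55 (537 against 89.6 and 378 against 83.4) and in Ackr3, a scavenging receptor of Cxcl12 (614 against 149 and 340.2 against 149). Dpp4, a gene of the gate on the other side, stood at 180.4 against 18.9 UPM in ND and at 76.9 against 5.01 in HFD. Pi16, of the same side, went the other way, at 142 against 318 UPM in ND and 179 against 244 in HFD. The chemokine Ccl2 stood at 1087 against 212 and 529 against 90.1 UPM, from 7 and 10 of the Ccl11-led cells, of which 1 held 92 of the 253 UMIs in ND and 1 held 118 of 227 in HFD. Cd55 and Ackr3 are also genes of the Pi16 type list. Pi16 and Dpp4 are genes of the gate, which lets a member hold no more UMIs of the Pi16 side than of the Ccl11 side. A Cxcl14-led member held up to 126 Cxcl14 UMIs in ND and 291 in HFD, a Ccl11-led member up to 44 and 55 of Ccl11. The gate thus bounds Pi16 and Dpp4 unequally in both kinds of member, and their levels are a description only.

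The Cxcl14-led members were higher in Gdf10 (276 against 17.2 UPM in ND and 265 against 18.6 in HFD), in the Wnt inhibitor Sfrp1 (158 against 25.8 and 249 against 23.3) and in Ecrg4 (462 against 60.1 and 384 against 67.6, where 1 ND and 4 HFD Ccl11-led cells held all of it). Fbln1, a matrix protein of elastic fibres, stood at 459.8 against 34.4 and 479 against 149 UPM. Comp, a cartilage and tendon matrix protein, had no UMI among the 232766 UMIs of the Ccl11-led ND members and stood at 1976 UPM in the Cxcl14-led ones, and in HFD it stood at 385 against 1353. Mgp stood at 5553 UPM in Cxcl14-led against 683 in Ccl11-led ND members, and at 9326 against 4805 in HFD. Sparcl1, Dpep1, Col4a1 and Smoc2 were closer between both kinds of member, with log2 ratios of Ccl11-led over Cxcl14-led cells of 0.05 and 0.20 for Sparcl1, 0.08 and -0.06 for Dpep1, 0.54 and -0.38 for Col4a1 and 0.84 and 0.72 for Smoc2 in ND and HFD. Gdf10 was also found in members led by Inmt, at 198 UPM in ND and 446 in HFD, and in members led by Col15a1, at 154 UPM in HFD and with 2 UMIs in ND.

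The diet comparison within the members took 3320 genes with at least 100 UMIs over both libraries. 43 genes were at least 2-fold higher in HFD (1.3% of those tested) and 26 at least 2-fold lower (0.783%), with a median log2 ratio of 0.02 and 53.8% of genes above 0. Single cells carried a large part of this. In 11 of the 43 genes over 50% of the HFD UMIs came from 1 member, and in 8 of the 26 genes over 50% of the ND UMIs did. Past the fold also without the cell with most UMIs were 32 higher genes (0.964%) and 17 lower ones (0.512%). In the Pi16 type progenitors, 33 of 4243 genes were 2-fold higher and 26 lower in HFD.

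3 members held most of the UMIs behind the largest ratios. 1 HFD member of 21070 UMIs held 760 of the 847 HFD UMIs of Cd74, the invariant chain of MHC class II, and 256 of 267, 241 of 252 and 207 of 215 UMIs of H2-Aa, H2-Ab1 and H2-Eb1, MHC class II chains of antigen-presenting cells. It also held 7 UMIs of the leukocyte gene Ptprc and no UMI of the B cell gene Cd79a. Without the cell with most UMIs the log2 HFD over ND ratio of Cd74 went from 4.26 to 1.1 and that of H2-Eb1 from 4.37 to -0.05. A second HFD member, of 43695 UMIs, held 206 of 210 UMIs of the replication-linked histone Hist1h1b, 252 of 275 of Hist1h2ap and 166 of 185 of Stmn1, and also all 55 of the cartilage gene Acan and 409 of 1616 of Comp, with 4 UMIs of the genes that chose it. In ND, 1 member of 31679 UMIs held 402 of 403 UMIs of Tagln and 756 of 2355 of Fn1, with 30 UMIs of Dcn and 5 of Ly6a, the least that the gate takes.

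Genes of the matrix and of lipid handling were among the remaining genes higher in HFD. Mgp stood at 3361 UPM in ND (3241 to 3484) and 7104 in HFD (6966 to 7244), a log2 ratio of 1.08 that was 1.25 without the cells with most UMIs but under the fold at 0.83 as a mean over cells of shares of UMIs, 0.86 in cells thinned to 5000 UMIs and 0.72 with at least 10 Ly6a UMIs. Eln, the elastic fibre core protein elastin, stood at 50.7 UPM (37.0 to 67.8) and 139.8 (121 to 161), in 10 and 46 members. Fbln5, which helps to assemble elastic fibres, stood at 93.5 UPM (74.5 to 116) and 214 (190.2 to 239). Cpxm1 stood at 64.2 and 215 UPM, Pdgfrl, a PDGF receptor-like protein, at 48.4 and 157 and Igsf10, an immunoglobulin superfamily matrix protein, at 58.6 and 136. None of these intervals overlapped between the libraries. Eln was under the fold without members that held a Ptprc UMI (0.81), Fbln5 as a mean over cells (0.86) and Pdgfrl in thinned cells (0.93). Cpxm1 and Igsf10 were past it under each of 11 alternatives, of which 1, the removal of barcodes marked as doublets, took out no member.

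These matrix genes were not higher in HFD in members alone. In the Pi16 type progenitors the log2 HFD over ND ratio was 1.26 for Mgp, 1.38 for Eln, 2.73 for Pdgfrl, 1.21 for Cpxm1, 0.75 for Fbln5 and 0.51 for Igsf10. Mgp stood higher in HFD in the tendon gate too (5116 and 10432 UPM), stood at 575 and 484 UPM in the osteogenic gate, and at 6.93 and 17.1 UPM in the B gate. Sparcl1 had a log2 ratio of 0.96 in members, just under the fold, and of 0.85 in the Pi16 type, and stood at 38.6 and 139 UPM in the tendon gate. Over 35 tested genes of fibrillar and interstitial matrix, 3 were past the fold upward (Eln, Fbln5 and Postn), 1 downward (Fn1), against 1.3% of all tested genes higher and 0.783% lower, and the median was -0.01. Postn had 81 of its 111 HFD UMIs in 1 member.

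Lipid genes differed in both directions. Lpl stood at 196 UPM in ND (168 to 227) and 514 in HFD (477 to 552), a log2 ratio of 1.39 and 1.26 without the cells with most UMIs, against 0.23 in the Pi16 type. As a mean over cells it was 0.87 and in thinned cells 0.89, both under the fold. Apoe, a lipid carrier, stood at 203 and 559 UPM (1.46, against -0.09 in the Pi16 type), in 24 and 41 members, and was under the fold without Ptprc cells (0.50). Angptl4, a secreted inhibitor of Lpl, stood at 22.5 and 112 UPM (2.28, against 0.64), in 14 and 57 members, and Plin2, a coat protein of lipid droplets, at 33.8 and 76.6 (1.16, against 0.31). G0s2, an inhibitor of the lipase that breaks down stored fat, went the other way, at 283 and 110.3 UPM (-1.36, and -0.44 without Ptprc cells). Of the 14 lipid genes tested in members, 4 were past the fold upward and 1 downward, against 1.3% of all tested genes higher and 0.783% lower, and the median was -0.05. None of the 6 adipocyte markers, among them Adipoq and Plin1, had a UMI in any member, which allows a summed level of up to 3.38 UPM in ND and 2.11 in HFD. The difference between the types in these ratios was not tested.

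**Figure D5:**
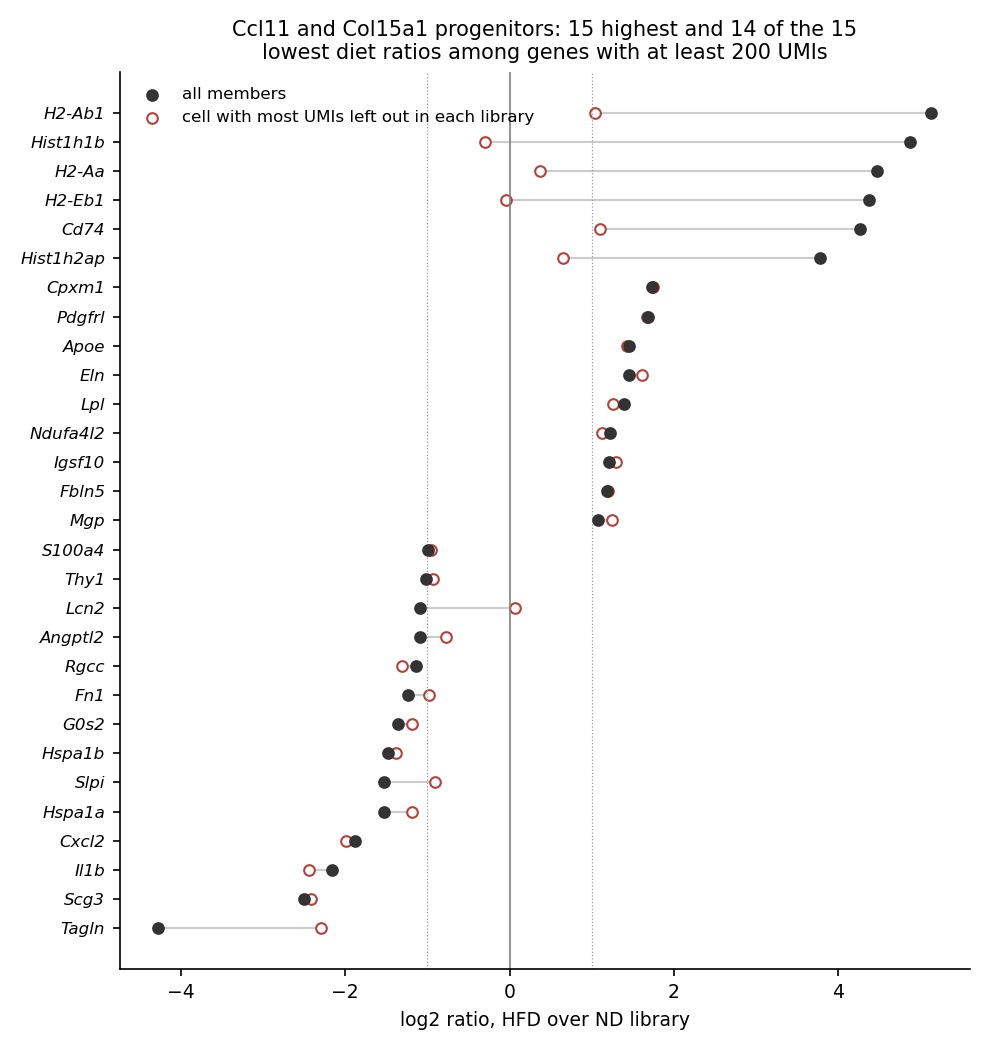
Log2 HFD over ND ratio in the Ccl11 and Col15a1 progenitors (x axis) for the 15 highest and 14 of the 15 lowest genes with at least 200 UMIs (y axis), over all members (filled) and without the cell with most UMIs in each library (open). Dotted lines mark a 2-fold difference. The MHC class II genes, Cd74 and the histone genes move toward 0 without 1 cell, whereas Cpxm1, Pdgfrl, Apoe, Eln, Lpl and Mgp stay near their values.

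Among single genes of other lists, Ntrk2, the receptor of the neurotrophin BDNF, stood at 90.1 UPM in ND and 188 in HFD members (log2 ratio 1.05, and 1.12 without the cells with most UMIs), in 37 and 72 members. It was the 1 gene past the fold of 6 tested among receptors for nerve-derived ligands, whose median was 0.08. Of all tested genes, 1.3% were 2-fold higher and 0.783% lower. The ratio of Ntrk2 in the Pi16 type was 0.13. Il33, an alarmin cytokine, stood at 27.0 and 59.7 UPM (1.12), in 11 and 36 members. Of the enzymes of prostaglandin synthesis, Ptges stood at 29.3 and 63.9 UPM (1.11) and Ptgis at 121 and 38.6 (-1.63). The 11 alternatives were run for the ranked genes only, which leaves out Ntrk2, Il33, Ptges and Ptgis. Ndufa4l2, a mitochondrial protein induced in hypoxia, stood at 63.1 and 148 UPM (1.22, but 0.85 as a mean over cells and 0.96 in thinned cells).

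A pair of heat-shock genes was among the genes lower in HFD. Hspa1a and Hspa1b encode near-identical inducible HSP70 chaperones, so that reads can be split between them, and both are given as a pair. Hspa1a stood at 653 UPM in ND (601 to 709) and 226 in HFD (202 to 252), with a log2 ratio of -1.53 and of -1.19 without the cells with most UMIs. Hspa1b stood at 819 UPM (760.4 to 881) and 293 (266 to 322), with ratios of -1.48 and -1.38. The pair was lower in HFD in the other 5 groups as well. Hspa1a stood at 265 and 147 UPM in the Pi16 type, 319 and 139.6 in the tendon gate, 579 and 141 in the osteogenic gate, 1308 and 463 in the B gate and 199.7 and 58.1 in the neutrophil gate. Hspa1b stood at 313 and 133 UPM in the Pi16 type, 358 and 134 in the tendon gate, 547 and 75.8 in the osteogenic gate, 1359 and 559.6 in the B gate and 179 and 58.0 in the neutrophil gate. Over all 16 heat-shock chaperones tested, 2 were past the fold, 12 were below 0 and the median was -0.29, against -0.33 in the Pi16 type. Of all genes tested in members, 0.783% were 2-fold lower and 53.8% were above 0.

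The stretches before the start sites of the pair are shown because the genes moved together. Each is 250 bases long from RefSeq (GRCm38.p6), written along the minus strand on which both genes lie, and ends at the base before the start site. Capitals mark the letters GAANNTTC, the core of a heat-shock element, searched on both strands, on which it reads alike.
Hspa1a, chr17:34972157-34972406: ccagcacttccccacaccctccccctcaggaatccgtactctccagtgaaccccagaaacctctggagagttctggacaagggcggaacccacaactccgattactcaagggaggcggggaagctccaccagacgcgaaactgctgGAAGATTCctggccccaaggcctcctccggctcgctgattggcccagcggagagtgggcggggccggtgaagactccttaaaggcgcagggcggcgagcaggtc
Hspa1b, chr17:34959239-34959488: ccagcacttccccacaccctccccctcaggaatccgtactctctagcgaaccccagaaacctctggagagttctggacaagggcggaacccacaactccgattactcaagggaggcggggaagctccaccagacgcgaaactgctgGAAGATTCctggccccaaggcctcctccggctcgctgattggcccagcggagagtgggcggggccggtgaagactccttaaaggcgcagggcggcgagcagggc
The stretches differed at 3 of 250 positions, and each held the motif a single time, beginning 104 bases before the start site. Of 32851 stretches of this length in the table, 6.69% held it. A match describes letters and does not show that a factor binds there.

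The other genes lower in HFD were of mixed kinds. Scg3, a secretory granule protein, stood at 389 UPM in ND and 68.1 in HFD members (log2 ratio -2.51, and -0.08 in the Pi16 type), in 23 of 75 and 26 of 117 members, with 114 and 110 of its 345 ND UMIs in 2 cells, and -1.79 without the 2 cells with most UMIs in each library. Thy1, a surface protein of fibroblasts, stood at 157 and 77.3 UPM (-1.02, but -0.70 as a mean over cells) and S100a4, a calcium-binding protein, at 1063 and 533 (-0.995). Fn1, fibronectin, stood at 2653 and 1131 UPM (-1.23), and at -0.99 without the cells with most UMIs and -0.79 as a mean over cells. Rgcc, a regulator of the cell cycle, and Angptl2, a secreted angiopoietin-like protein, had ratios of -1.14 and -1.09, of which the second was -0.58 with at least 10 Ly6a UMIs.

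Il1b, Cxcl2, Slpi and Lcn2, genes with a high level in neutrophils, had log2 ratios of -2.16, -1.88, -1.53 and -1.09. Without Ptprc cells, Cxcl2 was at -0.33 and Slpi at -0.40. Il1b was found in 6 ND and 11 HFD members, and 94 of its 176 ND UMIs came from 1, and its ratio was 0.79 when members with a UMI of Ptprc were left out. Lcn2 had 479 of its 584 ND UMIs in 1 member and 263 of its 441 HFD UMIs in another, and stood at 0.07 without them. In the B gate, Il1b stood at 72.1 and 72.8 UPM, Cxcl2 at 130.3 and 58.4, Slpi at 226 and 156 and Lcn2 at 509.6 and 518. The members held 198 and 44.3 UPM of Il1b, 243 and 66.0 of Cxcl2, 207 and 71.7 of Slpi and 658 and 309.8 of Lcn2, so that in HFD members Cxcl2 alone of these 4 genes was above its level in the B gate, which lay within its interval in members (53.4 to 80.8).

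Some lists lay mostly below 0 with few genes past the fold. Of all genes tested in members, 53.8% were above 0, 1.3% were 2-fold higher and 0.783% were 2-fold lower. Of the 34 immediate-early and dissociation genes tested in members, none was past the fold in either direction, 25 were below 0 and the median was -0.13, against -0.31 in the Pi16 type. Fos stood at 7246 UPM in ND and 5924 in HFD members. Of the 13 glucocorticoid-responsive genes tested, 10 were below 0 (median -0.37, against -0.43 in the Pi16 type) and 2 were past the fold, Angptl4 upward and Lcn2 downward. Among chemokines and cytokines, 7 of 10 were below 0. Of the 19 tested genes of the Pi16 type list, 17 were below 0 (median -0.29, and -0.13 without the cells with most UMIs), while in the Pi16 type progenitors the median of these genes was 0.01. Of the 23 tested genes of the Col15a1 list, 18 were above 0 (median 0.23, against 0.53 in the Pi16 type), with Mgp and Lpl past the fold. Members whose split was thin, with under 75% on the Ccl11 side, were 22 of 75 in ND and 30 of 117 in HFD.

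Lists with no gene past the fold by diet in members were basement membrane (13 tested, median 0.22), small leucine-rich proteoglycans (8, 0.22), complement (11, 0.25), Wnt and BMP modulators (14, 0.04), interferon and MHC class I (11, 0.09), circadian clock (5, 0.01) and limb position genes (2, 0.21). Beside the 1.3% of all tested genes that were 2-fold higher and the 0.783% that were lower, single genes past the fold were 1 of 21 growth factors (Angptl4), 1 of 5 osteogenic genes (Postn), 1 of 5 proliferation genes (Stmn1, mostly of 1 cell) and 1 of 16 mesenchymal identity genes (Thy1, lower), and 3 of 30 enzymes of small-molecule metabolism were past it (Ptges and Cyp1b1 higher, Ptgis lower). Igf1, the gene of an insulin-like growth factor, stood at 494 and 262 UPM, just inside the fold (-0.92).

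Genes of the hindlimb were found in members. All cells came from femurs and tibias, so that no other site was compared. Hoxc10, a gene of the hindlimb, stood at 52.9 and 67.4 UPM in members and at 0.112 and 0.118 in the B gate, and Pitx1, another hindlimb gene, at 12.4 and 9.84 and at 0.112 and 0.118.

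Markers of other cells were summed over the members. The 8 neutrophil markers, led by S100a9, stood at 14226 UPM in ND and 12225 in HFD members, against 18685 and 15899 in the B gate. The pair of members with most of these UMIs in each library held 83.3% of them in ND and 72.2% in HFD, and 1 of them in ND held 2184 of 4208 UMIs of S100a8 beside 219 of Dcn. The 6 macrophage markers, led by Lyz2, stood at 389.7 and 353 UPM, below the 874 and 531 of the B gate, with 88.7 and 70.3% of these UMIs in 2 members of each library. The 6 B cell markers, led by Igkc, stood at 48.4 and 204 UPM, and 72.9% of the HFD UMIs came from 2 members. The 6 mural markers, led by Tagln, stood at 505 and 60.4 UPM, with 97.1% of the ND UMIs in 1 member. The 4 general leukocyte genes, led by Cd52, stood at 315 and 246 UPM against 2638 and 2675 in the B gate, and Ptprc was found in 10 ND and 13 HFD members.

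Markers of further cell types were summed too. The 6 endothelial markers stood at 4.51 and 10.5 UPM with Cldn5 at 0, the 6 Schwann cell markers at 7.88 and 9.13 with Sox10 at 0, the 6 muscle markers at 7.88 and 4.22, the 6 T and NK cell markers at 37.2 and 2.81 with Cd4 at 0 (33 ND UMIs in 5 members, of which 2 held 87.9%, and 4 HFD UMIs), and the 6 erythroid markers at 83.3 and 115, against 1711 and 249 in the B gate. The 6 chondrocyte markers stood at 1232 and 1241 UPM, nearly all of it Comp, with Matn3 and Snorc at 0. The part of these cells and of free RNA in the differences between diets was not tested.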

How the data were processed

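Cells of the periosteum of mice on normal (ND) or high-fat diet (HFD) were sequenced as 1 pooled library per diet. The authors deposited unnormalised UMI counts per gene and barcode, made with Cell Ranger 6.0.1 on mm10 per the submitters' processing notes. The files held 6314 and 6636 barcodes with 48558889 and 49940976 UMIs. The filter of the study's methods was applied, and it took barcodes in which over 500 but under 8000 genes were found, with mitochondrial genes at under 20% of UMIs. Of 32285 gene identifiers, 32158 matched the GENCODE M21 annotation, which was used for positions.

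Counts were summed over the members of each library and given per 1000000 UMIs of the group (UPM), with exact Poisson intervals, and shares with exact Clopper-Pearson intervals, at 95%. Log2 ratios had 0.5 UMIs added to each count. Genes with at least 100 UMIs were compared, and 2-fold was the call. With 1 library per diet no test across genes or cells was made. For each gene, ratios were also computed without the 1 and the 2 cells with most UMIs in each library. Named genes were the genes and markers of the gate, the 15 highest and 15 lowest ratios between types and (from 200 UMIs) between diets, the 4 most abundant genes of each list and any past the fold, apart from predicted, mitochondrial and ribosomal protein genes in the ranked sets. A few genes that this rule names are not reported here. Genes of Ccl11-led and Cxcl14-led cells, and single genes outside these sets, were chosen after their values were seen. The members, lists and thresholds were chosen with earlier results of these data known.

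Scrublet, run in scanpy 1.11.5, marked 9 ND and 23 HFD barcodes (0.149 and 0.37%) and no member. This is too few for so many cells, so that it is taken not to have worked, and doublets were not removed. Python 3.11.15, numpy 2.4.6, scipy 1.17.1 and pandas 2.3.3 were used. The ratio steps were tested on simulated counts. The neutrophil gate took cells with at least 1% of UMIs on S100a8 and S100a9, and it and the B cell gate left out cells with collagen genes at 0.5% of UMIs or more. Promoter stretches came from a RefSeq table of GRCm38.p6.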

Additional observations from a re-analysis of the deposited data

How the results depend on the processing

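No paired analysis was possible because all mice of a diet sit in 1 library and no barcode carries a mouse number, and no replicate could be left out. The share of members among filtered cells was higher in HFD than in ND under each alternative. With at least 10 Ly6a UMIs it was 0.862% in ND and 1.40% in HFD, with Cxcl14 left out of the split 0.846 and 1.53%, and with cells thinned to 5000 UMIs, which drops shallow cells, 1.87 and 2.95%. The share of the progenitor gate was 33.5% in ND with 10 Ly6a UMIs, and 27.9 and 36.0% without Cxcl14. The counts of genes higher in HFD, lower in HFD and higher in members than in the Pi16 type were 102, 60 and 206 from a minimum of 50 UMIs and 20, 14 and 84 from 200 UMIs. Thinned cells, in which fewer genes reach the minimum, gave 5 and 8 by diet and 64 higher and 59 lower between types, and a fold of 1.5 gave 154, 112, 312 and 271. Leaving out the cell with most UMIs of each gene, an alternative chosen after seeing the data like the next 2, gave 46 and 18 genes by diet. Leaving out the 2 cells with most UMIs gave 15 genes lower in HFD and 171 lower in members than in the Pi16 type. Leaving out members with a Ptprc UMI gave 32 and 19. Of 60 ratios of named genes, 7 changed sign under 1 or more of 11 alternatives and 53 under none. Of the 29 ranked genes past the fold by diet, 6 were past it under all 11 alternatives (Cpxm1, Igsf10, Scg3, Hspa1a, Hspa1b and Rgcc). 1 of the 11, the removal of barcodes marked by Scrublet, took out no gated cell. It could change neither a ratio nor the number of members and is no check. With 10 Ly6a UMIs H2-Aa was at -0.19 and Tagln at 3.74 by diet and at -0.86 between types. Without the cell with most UMIs Hist1h1b was at -0.30, H2-Eb1 at -0.05 and Lcn2 at 0.07 by diet, and Tagln at -3.07 between types. Without the 2 cells with most UMIs Hist1h1b was at -0.20 and Lcn2 at 0.99 by diet, and Tagln at -2.79 between types. Without Ptprc cells H2-Eb1 was at -0.35, Il1b at 0.79 and Lcn2 at 0.06. At these depths a gene with few UMIs in the members cannot be compared between diets.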
